A study of Homo sapiens with 12 samples.

Results

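The genes described here were 10 members chosen by name, namely ADM, CA9, CA12, VEGFA, NDRG1, EGLN3, ANKRD37, BNIP3, KDM3A and ANGPTL4, which are targets of the hypoxia response or carbonic anhydrases. Each was found on 1 row of both deposited tables, as 10 of 31911 genes with counts in the table of CHD4 silencing and 10 of 33154 in the table of CHD3 silencing. The study silenced the chromatin remodellers CHD4 or CHD3, ATPases of the NuRD complex, in 501Mel cells, an established human melanoma line grown in RPMI 1640 with serum, and collected polyA RNA 72 h after transfection of siRNA pools. There were 12 libraries in 4 groups of 3: siCtrl 1 to 3 with siCHD4 1 to 3 in the same table, and siCtrl 4 to 6 with siCHD3 1 to 3 in the other, all of the same line. Total counts per library were between 44966728 and 102005319 for siCHD4 with its controls, and between 38573214 and 57219281 for siCHD3 with its controls. The labels name no low-oxygen treatment, and they do not say whether the libraries of a group were separate cultures. The study describes its replicates as biological, and the p-values measure the spread between these libraries.

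In oxygenated cells, prolyl hydroxylases mark the alpha subunits of the hypoxia-inducible factors (HIF) for destruction by the VHL ubiquitin ligase. When oxygen is low the alpha subunits persist, pair with ARNT and bind short DNA elements near genes for angiogenesis, glycolysis, pH control and mitochondrial turnover. Carbonic anhydrases interconvert carbon dioxide and bicarbonate, and the membrane-bound CA9 and CA12 act outside the cell, where they help tumour cells to manage acid. CA9 is widely used as a marker of hypoxic tumour tissue.

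The sequences below are shown because HIF binds a core written ACGTG or GCGTG and because CA9, CA12 and ADM carried the called changes, with BNIP3 shown as the member with the densest matches. Each is the 250 bases upstream of the RefSeq start, build GRCh38.p14, 5′ to 3′, and capitals mark matches to ACGTG or GCGTG on either strand.
CA9 promoter (chr9:35673678-35673927, plus strand): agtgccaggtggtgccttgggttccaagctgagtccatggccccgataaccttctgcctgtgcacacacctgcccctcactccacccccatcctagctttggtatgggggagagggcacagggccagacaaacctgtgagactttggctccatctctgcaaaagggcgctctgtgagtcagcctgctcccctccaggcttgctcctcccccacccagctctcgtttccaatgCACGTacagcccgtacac
CA12 promoter (chr15:63381847-63382096, minus strand): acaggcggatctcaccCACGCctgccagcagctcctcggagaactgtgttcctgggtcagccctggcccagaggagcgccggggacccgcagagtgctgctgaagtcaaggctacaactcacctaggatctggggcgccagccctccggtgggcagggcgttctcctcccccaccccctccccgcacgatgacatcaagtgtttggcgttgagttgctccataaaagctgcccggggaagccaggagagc
ADM promoter (chr11:10304823-10305072, plus strand): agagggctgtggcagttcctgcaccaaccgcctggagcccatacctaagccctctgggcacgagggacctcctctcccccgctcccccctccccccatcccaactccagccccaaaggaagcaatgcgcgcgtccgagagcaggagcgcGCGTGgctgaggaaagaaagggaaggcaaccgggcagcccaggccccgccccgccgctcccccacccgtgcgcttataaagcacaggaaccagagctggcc
BNIP3 promoter (chr10:131981924-131982173, minus strand): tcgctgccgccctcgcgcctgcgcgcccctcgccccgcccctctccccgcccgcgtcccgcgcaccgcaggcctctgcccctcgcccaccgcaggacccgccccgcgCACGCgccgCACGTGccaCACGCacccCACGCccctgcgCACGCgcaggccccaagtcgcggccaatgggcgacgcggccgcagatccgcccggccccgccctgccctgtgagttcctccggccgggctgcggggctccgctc

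Promoter entries were matched by symbol for 8 members, and VEGFA and NDRG1 are named only. Of these 8, 7 held ACGTG or GCGTG on either strand, beside 43.1% of 27305 RefSeq promoters of the same length. The members were chosen by name as hypoxia targets or carbonic anhydrases, so these shares are a description and not a test. ACGTG was in 18.7% of all promoters, GCGTG in 31.9%, and 19.5% held at least 2 matches. A palindromic CACGTG counts on both strands. The CA9 match was 18 bases from the start, the ADM match 101 bases and the CA12 match 234 bases. BNIP3 had 6 matches, ANKRD37 had 3, and ADM, CA9, CA12, KDM3A and ANGPTL4 had 1 each in their first entry, while EGLN3 had none in this window. A match is a string of letters, and binding was not measured.

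The silenced genes fell as labelled. CHD4 was at 568, 488 and 591 CPM (counts per 1000000 counts of a library whose size was scaled by edgeR's TMM factor) in siCtrl 1 to 3 and at 79.6, 58.6 and 63.3 CPM in siCHD4, and CHD3 was at 77.4, 95.5 and 96.4 CPM in siCtrl 4 to 6 and at 18.9, 18.1 and 17.7 CPM in siCHD3. All 7 melanocyte lineage markers were abundant. Their summed level was 15100 to 19800 CPM in siCtrl 1 to 3 and higher, at 20200 to 21400 CPM, in siCHD4. It was 13800 to 14400 CPM in siCtrl 4 to 6 and 13000 to 17300 CPM in siCHD3. After either silencing 0 of 7 were called. Beside this, 4.80% of all genes were higher and 1.65% lower after siCHD4, and 3.89% and 4.33% after siCHD3. With 7 genes tested, 0 calls is near these shares. Keratinocyte markers stayed at or under 0.0233 CPM. Library siCtrl 3 stood apart from siCtrl 1 and 2. HIF1A, for example, was at 75.9 CPM in siCtrl 3 and at 184 and 148 CPM in siCtrl 1 and 2. Without siCtrl replicate 3, 1551 genes were called higher and 479 lower after CHD4 silencing, against 817 and 280 with it, and 4615 instead of 2431 genes differed between the responses. The same number of members, 2 and 4, was called in these comparisons without it.

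CHD4 silencing raised the RNA of both membrane-bound tumour carbonic anhydrases, CA12 and CA9, while the other 7 members tested did not pass the test. CA12 had 21, 20 and 10 counts in siCtrl 1 to 3 and 242, 239 and 348 counts in siCHD4, or 0.222, 0.263 and 0.273 CPM against 2.79, 2.78 and 3.24 CPM. Every siCHD4 library was thus above every control, and the increase was 11.7-fold (log2 3.55 ± 0.24 SE, 95% interval 2.99 to 4.11, edgeR adjusted p = 0.000655, n = 3 against 3). CA12 kept its call when any single library was left out, with log2 values of 3.46 to 3.62. In these bulk libraries, more cells with CA12 RNA and more CA12 RNA per cell cannot be told apart.

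CA9 had 13, 6 and 5 counts in siCtrl 1 to 3 and 62, 44 and 85 counts in siCHD4, or 0.137, 0.0790 and 0.136 CPM against 0.714, 0.512 and 0.791 CPM. The groups did not overlap, and CA9 rose 5.74-fold (log2 2.52 ± 0.38 SE, interval 1.65 to 3.39, edgeR adjusted p = 0.00849). This call was narrow at so few counts. Without siCtrl replicate 2 the edgeR adjusted p was 0.0513, without siCHD4 replicate 1 it was 0.0599 and without siCHD4 replicate 3 it was 0.0507, with log2 values of 2.28 to 2.73 over all leave-one-out fits. The summed counts of 24 and 191 gave a ratio of 5.89 after scaling, with an exact 95% interval of 3.84 to 9.42 that covers counting error only.

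CA9 lies at chr9:35673925-35681156 (GRCh37, plus strand), and 571 of its exon bases, 35.7%, are shared with ARHGEF39 on the opposite strand. The strand setting of the counting was not given in the sources used here, so reads from the shared bases cannot be assigned with certainty. ARHGEF39 was at 35.9, 36.4 and 46.2 CPM in siCtrl 1 to 3 and at 41.0, 40.0 and 41.5 CPM in siCHD4 (log2 0.05, edgeR adjusted p = 0.915). In the siCHD3 table, 8482 counts of ARHGEF39 over 6 libraries came with 1 count of CA9. Of the annotated coding neighbours of CA9 within 100000 bp, CD72, SIT1 and MSMP were too low to be tested and the others were not called higher. RGP1, 68128 bp away, was called lower (log2 -1.11 ± 0.20 SE, edgeR adjusted p = 0.0151), a call kept in 2 of 6 leave-one-out fits and chosen for mention after its value was seen. CA12 lies at chr15:63613577-63674045 on the minus strand, and its neighbours APH1B, 12252 bp away (log2 0.29, edgeR adjusted p = 0.516), and RAB8B, 53602 bp away (log2 0.46, edgeR adjusted p = 0.533), did not pass the test.

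The other members lie on GRCh37 at chr6:43737921-43754224 (VEGFA, plus strand), chr11:10326620-10328944 (ADM, plus), chr10:133781188-133795471 (BNIP3, minus), chr2:86667770-86719839 (KDM3A, plus), chr14:34393433-34931980 (EGLN3, minus), chr4:186317175-186321782 (ANKRD37, plus), chr8:134249418-134314265 (NDRG1, minus) and chr19:8428173-8439254 (ANGPTL4, plus). Counts were summed over each gene, so isoforms were not separated.

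A member was called when its edgeR adjusted p was under 0.05 and its absolute log2 fold change over 1. By this rule 2 of the 9 members tested were higher after CHD4 silencing, where 4.80% of 17018 genes were, and 0 were lower, where 1.65% were. CA9 entered the test only through its siCHD4 libraries, as its controls alone were too low for the low-count filter. The members' counts here thus include a gene admitted by the group in which it was high. With the adjusted p alone the members' counts were the same, beside 5.07% higher and 2.06% lower of all genes. Every siCHD4 library lay above every control for 2 members, beside 16.8% of genes, and below for 0 members, beside 14.5%. The median log2 change was -0.01 over the members and -0.06 over all genes. ANGPTL4 was too low to be tested.

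**Figure D1:**
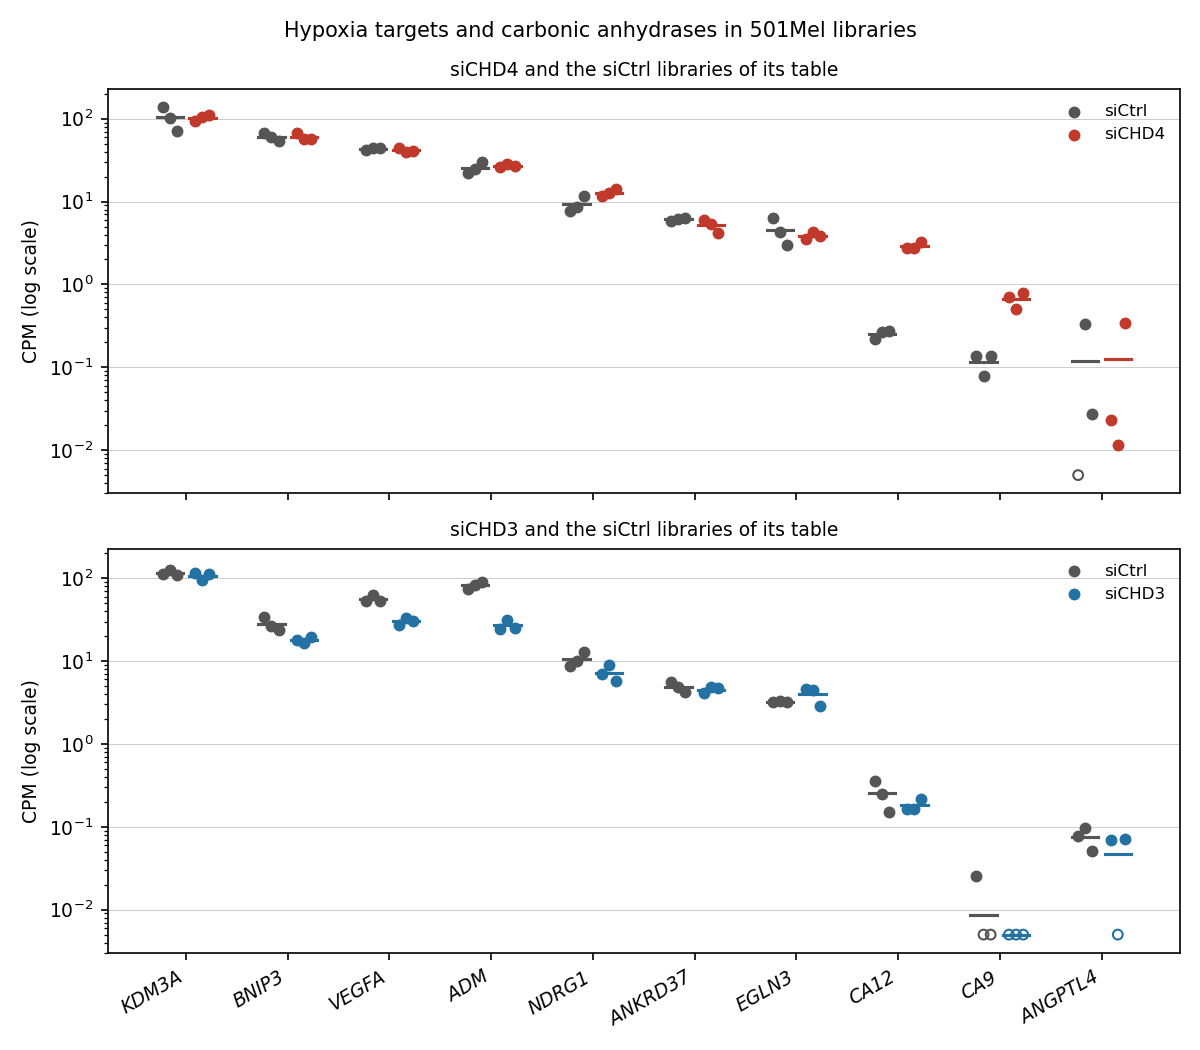
Level of each member in each library, as TMM-scaled CPM on a log axis, with siCHD4 and siCHD3 in separate panels beside the siCtrl libraries of their own table. Points are libraries, horizontal lines are group means, and open circles or a line at the bottom stand for 0. CA12 at 2.78 to 3.24 CPM and CA9 at 0.512 to 0.791 CPM stand above their controls in the siCHD4 panel, and ADM at 24.4 to 31.3 CPM stands below its controls in the siCHD3 panel.

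The members for angiogenesis and mitophagy did not pass the test after CHD4 silencing. VEGFA, the main angiogenic growth factor, was at 42.4, 44.5 and 44 CPM in siCtrl 1 to 3 and at 44.5, 39.5 and 41.3 CPM in siCHD4, groups that overlapped (log2 -0.06, interval -0.49 to 0.37, edgeR adjusted p = 0.882). ADM, which encodes the vasodilator peptide adrenomedullin, was at 22.2, 24.4 and 29.7 CPM and at 25.9, 28.7 and 27.1 CPM (log2 0.10, interval -0.37 to 0.57, edgeR adjusted p = 0.823). BNIP3, a mitochondrial receptor for mitophagy, was at 67.5, 60.6 and 53.7 CPM and at 66.8, 57.4 and 56.8 CPM (log2 -0.01, interval -0.47 to 0.46, edgeR adjusted p = 0.989). For these genes the intervals leave room for changes of less than the fold minimum in either direction.

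Among the oxygen-sensing and chromatin members, KDM3A and EGLN3 varied more between the controls than between the siCHD4 libraries. KDM3A, a histone demethylase that is itself a HIF target, was at 137, 103 and 72.0 CPM in siCtrl 1 to 3 and at 94.5, 105 and 110 CPM in siCHD4 (log2 -0.01, interval -0.62 to 0.59, edgeR adjusted p = 0.983). EGLN3, an oxygen-dependent prolyl hydroxylase of HIF alpha subunits, was at 6.38, 4.35 and 3 CPM and at 3.50, 4.25 and 3.82 CPM (log2 -0.25, interval -0.92 to 0.42, edgeR adjusted p = 0.667). Both had their highest and lowest levels within the siCtrl libraries, and the lowest was siCtrl 3 each time. ANKRD37, an ankyrin repeat gene known as a HIF target, was at 5.80, 6.12 and 6.41 CPM and at 6.03, 5.41 and 4.23 CPM (log2 -0.23, edgeR adjusted p = 0.584). It shares 40.3% of its exon bases with UFSP2 on the opposite strand, which was not called (log2 0.17, edgeR adjusted p = 0.773).

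NDRG1, a stress-responsive gene of the N-myc downstream regulated family, was at 7.80, 8.67 and 11.8 CPM in siCtrl 1 to 3 and at 11.7, 12.6 and 14.1 CPM in siCHD4. The groups met at siCtrl 3 and siCHD4 1, and the difference did not pass the test (log2 0.44, interval -0.08 to 0.97, edgeR adjusted p = 0.303). Without siCtrl replicate 3 the log2 change of NDRG1 was 0.656 with an edgeR adjusted p of 0.00408, still under the fold minimum. The secreted lipase inhibitor ANGPTL4 had 0, 25 and 1 counts in siCtrl 1 to 3 and 2, 1 and 37 counts in siCHD4. Nearly all its counts came from siCtrl 2 and siCHD4 3, and the ratio of summed counts was 1.14, with an exact 95% interval of 0.678 to 1.94 for counting error only.

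After CHD3 silencing the called member was ADM, which fell. It was at 75.1, 82.5 and 89.3 CPM in siCtrl 4 to 6 and at 24.4, 31.3 and 25.4 CPM in siCHD3. The lowest control was far above the highest siCHD3 library, and ADM fell to 0.329 times its control level (log2 -1.61 ± 0.15 SE, interval -1.93 to -1.28, edgeR adjusted p = 3.7e-05, n = 3 against 3). The call held in all 6 leave-one-out fits, with log2 values of -1.70 to -1.54.

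VEGFA and BNIP3 were lower as well, but by less than the fold minimum, and were not called. VEGFA was at 53.2, 62.6 and 52.4 CPM in siCtrl 4 to 6 and at 27.5, 32.9 and 30.3 CPM in siCHD3, 0.539 times its control level (log2 -0.89 ± 0.15 SE, edgeR adjusted p = 0.00120). BNIP3 was at 34.4, 26.2 and 24.0 CPM and at 18.1, 16.5 and 19.8 CPM, 0.644 times its control level (log2 -0.64 ± 0.17 SE, edgeR adjusted p = 0.0205). In neither gene did the groups overlap. When 1 library was left out, the edgeR adjusted p stayed at or under 0.00979 for VEGFA but reached 0.0743 for BNIP3 and was under 0.05 in 2 of 6 fits. NDRG1 was at 8.81, 10.1 and 12.9 CPM and at 6.89, 9.03 and 5.79 CPM, which overlapped and did not pass the test (log2 -0.56, edgeR adjusted p = 0.0859).

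The remaining members showed no change that passed the test after CHD3 silencing. KDM3A was at 111, 124 and 110 CPM in siCtrl 4 to 6 and at 116, 94.6 and 113 CPM in siCHD3 (log2 -0.10, interval -0.39 to 0.20, edgeR adjusted p = 0.666). ANKRD37 was at 5.58, 4.82 and 4.28 CPM and at 4.10, 4.82 and 4.67 CPM (log2 -0.11, edgeR adjusted p = 0.746), and its opposite-strand neighbour UFSP2 had a log2 change of 0.75 (edgeR adjusted p = 0.00708), under the fold minimum. EGLN3 was at 3.20, 3.28 and 3.24 CPM and at 4.57, 4.52 and 2.85 CPM (log2 0.29, edgeR adjusted p = 0.417).

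CA9, CA12 and ANGPTL4 were too low in the siCHD3 table to be tested. CA12 had 14, 13 and 6 counts in siCtrl 4 to 6 and 7, 7 and 12 counts in siCHD3, a ratio of 0.728 after scaling with an exact 95% interval of 0.418 to 1.25. ANGPTL4 had 3, 5 and 2 counts and 3, 0 and 4 counts, a ratio of 0.646 with an interval of 0.209 to 1.88. CA9 had 1 count over the 6 libraries, under a floor of 3 counts in both groups, so no ratio is given. These intervals cover the counting error of amplified reads only, not the spread between libraries, and for CA9 a change after CHD3 silencing was not detectable at this depth.

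By the rule with the fold minimum, 0 of 7 members tested were higher after CHD3 silencing, where 3.89% of 16115 genes were, and 1 was lower, where 4.33% were. By the adjusted p alone 3 of 7 were lower, beside 8.81% of genes, and 0 higher, beside 11.5%. Every siCHD3 library lay below every control for 3 of 7 members, beside 17.4% of genes, and above for 0 of 7, beside 19.7%. The median log2 change was -0.56 over the 7 members and -0.02 over all genes.

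**Figure D2:**
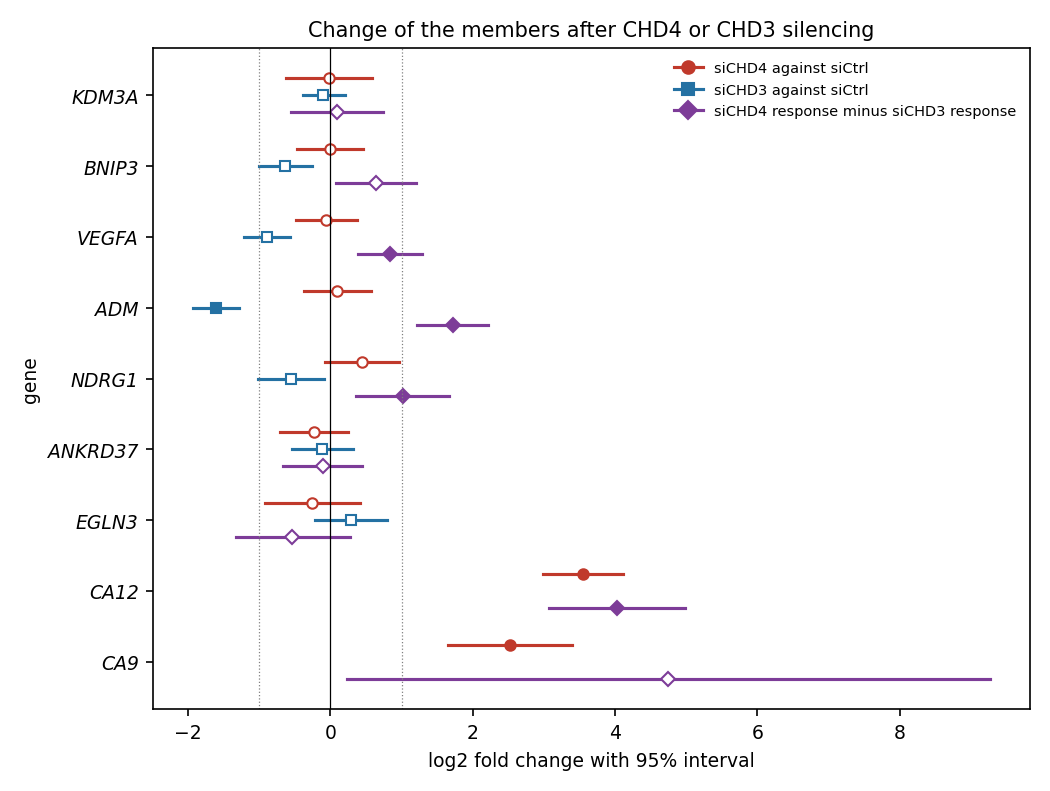
Log2 fold change of the 9 tested members (points) with 95% intervals (lines) after CHD4 silencing, after CHD3 silencing, and as the difference of the responses. Filled points were called and dotted lines mark the fold minimum of 1 on the log2 scale. CA12 at 3.55 and CA9 at 2.52 are the called values for siCHD4, ADM at -1.61 is the called value for siCHD3, and the interval for the difference in CA9 is wide, from 0.23 to 9.27.

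Whether a member responded unlike to each silencing was tested as an interaction over all 12 libraries, in which a constant offset between the tables cancels. Of 9 members tested, 4 had a higher response to siCHD4 than to siCHD3 at an edgeR adjusted p under 0.05, beside 6.84% of 17357 genes, and 0 a lower, beside 7.16%. The difference in log2 response was 4.02 ± 0.44 SE for CA12 (edgeR adjusted p = 0.000147) and 1.72 ± 0.23 SE for ADM (0.000555), and both calls held in all 12 leave-one-out fits. It was 0.84 ± 0.21 SE for VEGFA (edgeR adjusted p = 0.0169), called in 9 of 12 such fits, and 1.02 ± 0.30 SE for NDRG1 (0.0416), called in 3 of 12. Without siCHD4 replicate 3, for example, the adjusted p was 0.0522 for VEGFA and 0.110 for NDRG1, and without low-count filtering it was 0.0521 and 0.0577.

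CA9 did not pass this test (log2 difference 4.75 ± 2.04 SE, edgeR adjusted p = 0.171), and its response to siCHD3 rested on 1 count. The differences for BNIP3 (0.64, edgeR adjusted p = 0.123), EGLN3 (-0.53, 0.383), KDM3A (0.09, 0.878) and ANKRD37 (-0.10, 0.839) did not pass either. The median difference was 0.84 over the 9 members and -0.07 over all genes.

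Levels of different genes were compared on the deposited normalised signal per kilobase of gene. In siCtrl 1 to 3 the order was KDM3A at 9430 ± 3060 (SD, n = 3), VEGFA at 3340 ± 85, BNIP3 at 3330 ± 421, ADM at 1540 ± 210, NDRG1 at 1220 ± 251, ANKRD37 at 705 ± 26.9 and EGLN3 at 530 ± 202. CA9 at 12.8 ± 3.56, CA12 at 12.2 ± 1.24 and ANGPTL4 at 9.44 ± 14.6 came last. The ranges of VEGFA and BNIP3, of ADM and NDRG1, of ANKRD37 and EGLN3, and of the last 3 genes overlapped. After CHD4 silencing CA12 reached 145 ± 13.0 and CA9 74.6 ± 15.9 on this per-length signal, still below EGLN3 at 453 ± 46.1.

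In siCtrl 4 to 6 the order differed. KDM3A was at 6020 ± 465 (SD, n = 3) per-length signal, followed by ADM at 2890 ± 266, VEGFA at 2480 ± 274, BNIP3 at 894 ± 166, NDRG1 at 793 ± 160, ANKRD37 at 327 ± 41.5 and EGLN3 at 217 ± 4.51, with CA12 at 7.12 ± 2.83, ANGPTL4 at 3.41 ± 1.06 and CA9 at 0.533 ± 0.924. ADM and VEGFA overlapped in range, as did BNIP3 and NDRG1, and CA12 and ANGPTL4. The tables were normalised separately, so the control sets and the tables cannot be told apart and no test was made between them. By CPM, ADM averaged 25.4 ± 3.86 in siCtrl 1 to 3 and 82.3 ± 7.10 in siCtrl 4 to 6, and its level in siCHD3 of 27.0 ± 3.73 was close to that of siCtrl 1 to 3. BNIP3 averaged 60.6 ± 6.90 CPM in siCtrl 1 to 3 and 28.2 ± 5.48 CPM in siCtrl 4 to 6, so the control sets did not differ in the same direction for both genes.

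Among the other carbonic anhydrases, 5 of 13 were abundant enough to be tested in each table, and 0 were called after either silencing. Of all genes, 4.80% were higher and 1.65% lower after siCHD4, and 3.89% and 4.33% after siCHD3. With 5 genes tested, 0 calls is near these shares. CA14, a membrane-bound isoform, was at 83.9, 67.5 and 87.0 CPM in siCtrl 1 to 3 and at 158, 144 and 148 CPM in siCHD4, and at 45.9, 36.1 and 38.8 CPM in siCtrl 4 to 6 and 68.0, 64.5 and 88.5 CPM in siCHD3. It was higher in every silenced library of both tables than in any control of the same table, by 1.89-fold after siCHD4 (log2 0.92 ± 0.20 SE, edgeR adjusted p = 0.0308) and 1.83-fold after siCHD3 (log2 0.87 ± 0.16 SE, 0.00255), under the fold minimum in both. The difference between its responses was 0.06 on the log2 scale, with an interval of -0.48 to 0.59. Its edgeR adjusted p after siCHD4 ran from 0.000104 to 0.167 when 1 library was left out, and the lowest value, without siCtrl replicate 3, came with a log2 change of 1.004 that passed the fold minimum.

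The mitochondrial isoform CA5B was at 3.15, 3.30 and 2.50 CPM in siCtrl 4 to 6 and at 5.31, 4.85 and 5.93 CPM in siCHD3 (log2 0.85, edgeR adjusted p = 0.0131, under the fold minimum), and had a log2 change of -0.17 after siCHD4 (0.735). The difference of -1 between its responses passed the test (edgeR adjusted p = 0.0431), in 1 of 12 leave-one-out fits. CA8, an isoform without catalytic activity, had a log2 change of 0.03 after siCHD4 (edgeR adjusted p = 0.965) and of -0.51 after siCHD3 (0.0140, under the fold minimum). When 1 library was left out the edgeR adjusted p after siCHD3 reached 0.0551 for CA5B and 0.0684 for CA8. CA11, also without catalytic activity, and the cytosolic CA13 did not pass the test in either table, with log2 changes of -0.45 and 0.19 after siCHD4 and of 0.36 and -0.75 after siCHD3. The other 8 isoforms had at most 8 counts in any library.

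**Figure D3:**
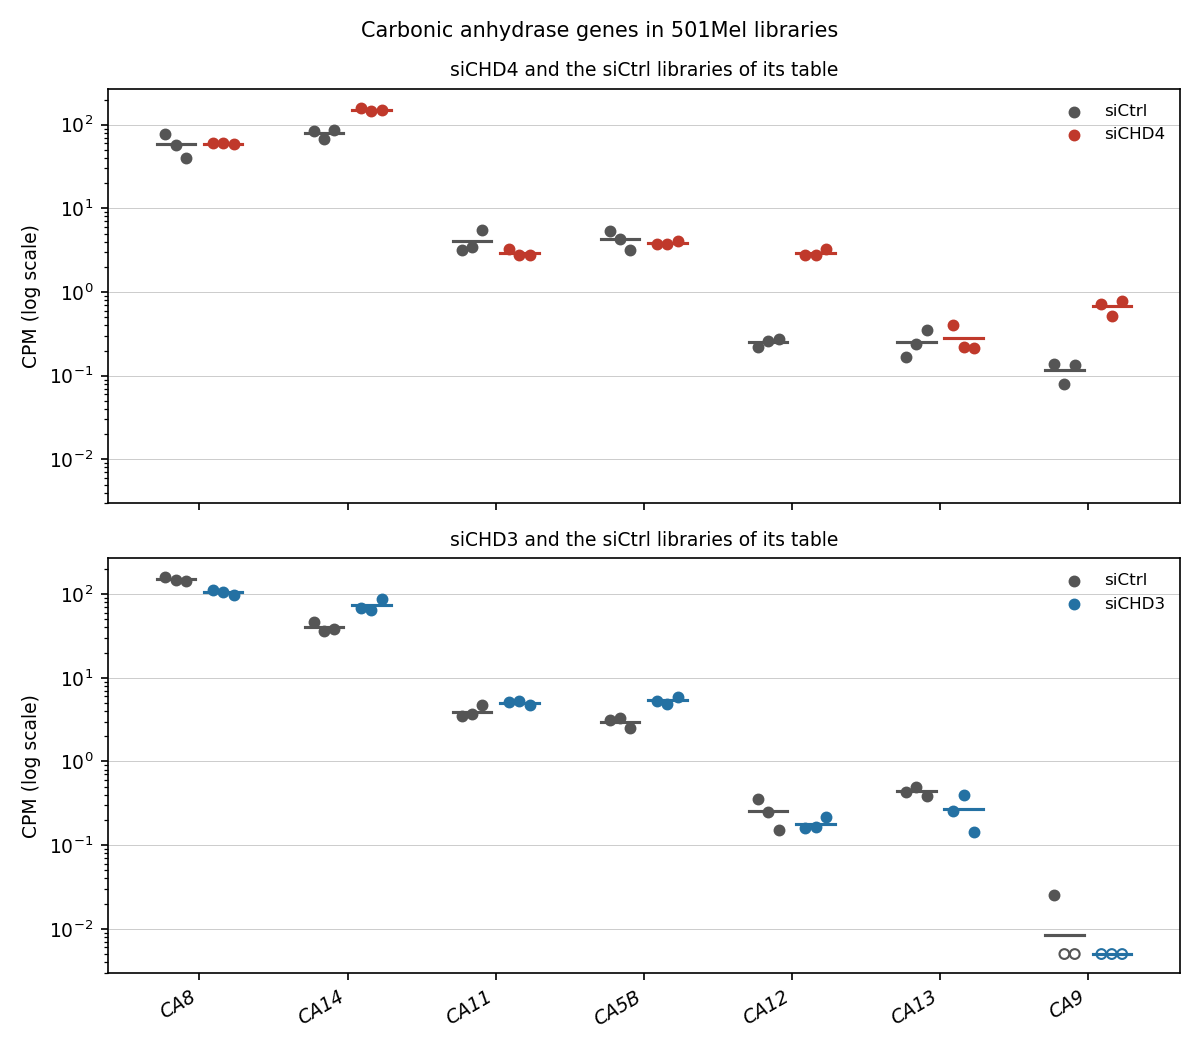
Carbonic anhydrase genes with at least 10 counts in some library, as TMM-scaled CPM on a log axis in each library of the siCHD4 and siCHD3 tables. Points are libraries, lines are group means, and open circles or a line at the bottom stand for 0. CA12 and CA9 are near the bottom in every control and rise in the siCHD4 panel, to 2.94 and 0.672 CPM on average, whereas CA14 is higher in both silenced groups.

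The genes of the HIF pathway itself were tested as a list of 13, which also held the clock factor ARNTL. After CHD4 silencing 0 of 13 were called, beside 4.80% of all genes higher and 1.65% lower. HIF1A was at 184, 148 and 75.9 CPM in siCtrl 1 to 3 and at 162, 193 and 190 CPM in siCHD4 (log2 0.42, interval -0.32 to 1.16, edgeR adjusted p = 0.504), and the alpha subunit EPAS1 had a log2 change of -0.03 (0.951). The partner subunit ARNT changed by -0.46 (edgeR adjusted p = 0.221), the prolyl hydroxylases EGLN1 by 0.55 (0.257) and EGLN2 by 0.08 (0.895), and VHL, the ubiquitin ligase subunit, by -0.23 (0.674), all on the log2 scale. Without siCtrl replicate 3 the edgeR adjusted p was 0.0365 for ARNT, 0.0456 for EGLN1 and 0.0277 for VHL, each with a change under the fold minimum.

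After CHD3 silencing 3 of 12 HIF pathway genes tested were called higher and 0 lower, beside 3.89% and 4.33% of all genes. EPAS1 was at 51.0, 69.5 and 69.9 CPM in siCtrl 4 to 6 and at 138, 131 and 158 CPM in siCHD3 (2.24-fold, log2 1.16 ± 0.16 SE, edgeR adjusted p = 0.000313). ARNT2, a paralogue of ARNT, rose by 1.03 ± 0.15 SE on the log2 scale (edgeR adjusted p = 0.000496), and ARNTL, the clock factor BMAL1, by 1.39 ± 0.18 SE (0.000242). The count of 3 thus includes a clock gene beside the HIF subunit genes. ARNT (0.50, edgeR adjusted p = 0.0181) and EGLN1 (0.89, 0.000711) passed the adjusted p but not the fold minimum, and the edgeR adjusted p of ARNT reached 0.103 when 1 library was left out. HIF1A (0.27, edgeR adjusted p = 0.232), EGLN2 (-0.28, 0.366) and VHL (0.18, 0.418) did not pass.

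The responses of 3 of 13 HIF pathway genes differed, all lower for siCHD4 than for siCHD3: EPAS1 by -1.18 (edgeR adjusted p = 0.00579), ARNT2 by -1.08 (0.00719) and ARNT by -0.95 (0.00848) on the log2 scale. Of all genes, 6.84% had a higher and 7.16% a lower response to siCHD4. The median log2 change of the list was -0.03 after siCHD4 and 0.42 after siCHD3. ARNT2 dropped under the fold minimum in 2 of 6 leave-one-out fits after siCHD3. EPAS1 RNA was higher and ADM RNA lower after CHD3 silencing, and a link between the 2 genes was not tested. Protein was not measured here.

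**Figure D4:**
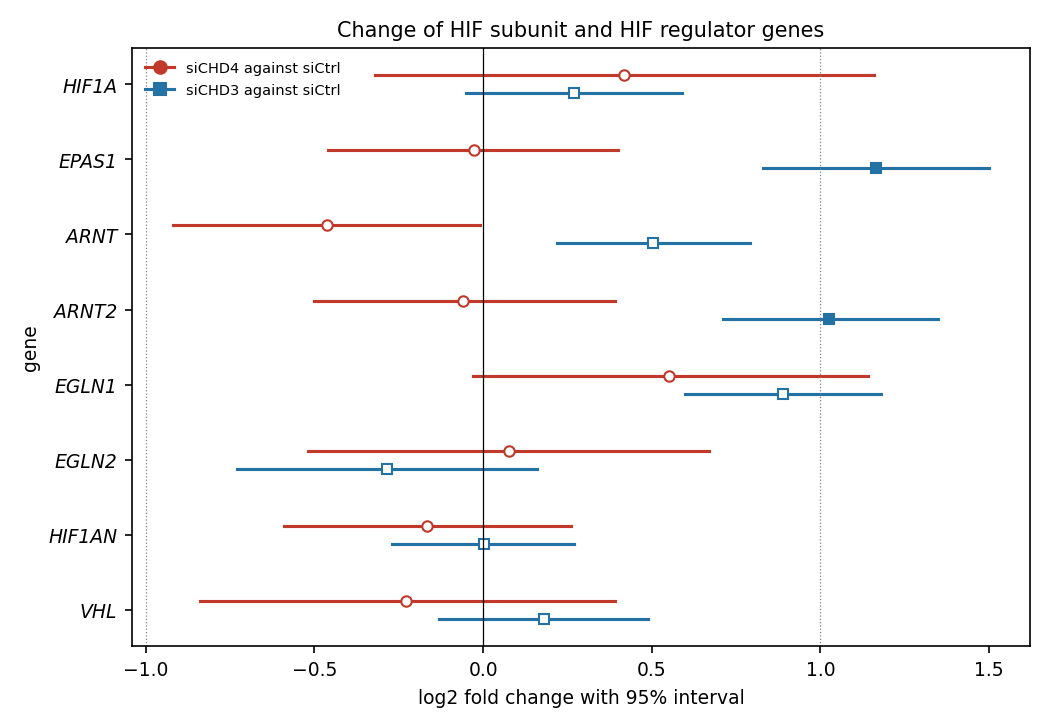
Log2 fold change with 95% interval (lines) of genes for HIF subunits and regulators after CHD4 silencing (circles) and CHD3 silencing (squares). Filled points were called. EPAS1 at 1.16 and ARNT2 at 1.03 are filled for siCHD3, and every siCHD4 point is open.

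A list of 65 other known hypoxia targets was taken across metabolism, matrix and stress genes. After CHD4 silencing 58 were tested, 0 were called higher and 1 lower, beside 4.80% and 1.65% of all genes, with a median log2 change of -0.15. The called gene was P4HA2, a collagen prolyl hydroxylase, at 44.1, 34.1 and 49.9 CPM in siCtrl 1 to 3 and at 20.5, 20.5 and 20.2 CPM in siCHD4 (log2 -1.06 ± 0.22 SE, edgeR adjusted p = 0.0264). Its call was kept in 1 of 6 leave-one-out fits, in which the adjusted p reached 0.17.

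After CHD3 silencing 4 of 56 were called higher and 4 lower, with a median log2 change of -0.10. The higher genes were the collagen lysyl hydroxylase PLOD2 (log2 1.56 ± 0.17 SE, edgeR adjusted p = 7.6e-05), the cyclin-like CCNG2 (1.43 ± 0.20, 0.000378), the mTORC1 inhibitor DDIT4 (1.20 ± 0.15, 0.000174) and ZNF395 (1.02 ± 0.15, 0.000593), which dropped under the fold minimum in 2 of 6 leave-one-out fits. The lower genes were the glycolytic enolase ENO2 (-1.78 ± 0.14, edgeR adjusted p = 1.6e-05), the lipid droplet gene HILPDA (-1.15 ± 0.18, 0.000872), the haem oxygenase HMOX1 (-1.41 ± 0.24, 0.00295) and the lysyl oxidase LOXL2 (-1.75 ± 0.37, 0.00496). HILPDA, HMOX1 and LOXL2 were named after their values were seen. These counts of 4 and 4 of 56 stand beside 3.89% of all genes called higher and 4.33% called lower. ENO2 at 261, 236 and 282 CPM in siCtrl 4 to 6 against 66.8, 75.3 and 85.0 CPM in siCHD3 had the smallest adjusted p of the list.

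Of 59 of these targets in the interaction, 4 had a higher and 7 a lower response to siCHD4 than to siCHD3, beside 6.84% and 7.16% of all genes. Those with the smallest adjusted p were ENO2 (difference 2.43 ± 0.32 SE, edgeR adjusted p = 0.000513), DDIT4 (-1.48 ± 0.21, 0.000850), ZNF395 (-1.29 ± 0.20, 0.00148) and P4HA2 (-1.35 ± 0.23, 0.00232) on the log2 scale.

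**Figure D5:**
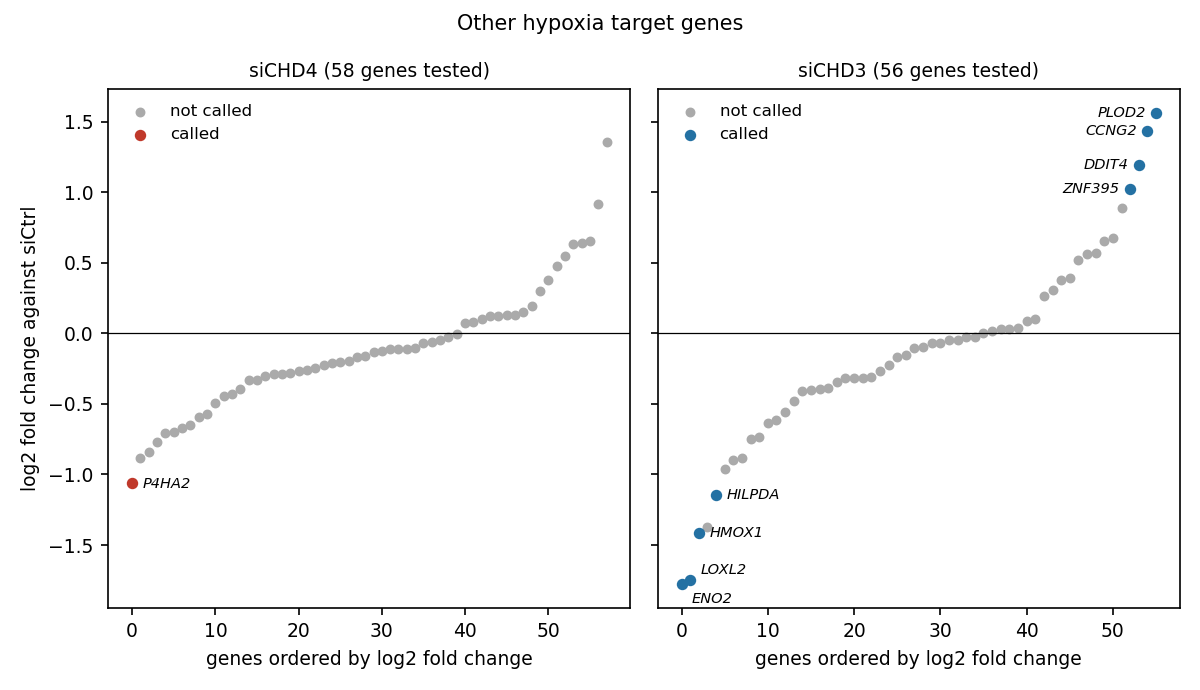
Log2 fold change of the other hypoxia targets, ordered within each panel, after CHD4 silencing (58 genes) and CHD3 silencing (56 genes). Coloured points were called. P4HA2 at -1.06 is the called gene for siCHD4, while 4 genes up to 1.56 and 4 genes down to -1.78 are called for siCHD3.

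Bicarbonate, proton and lactate transporters work with the membrane carbonic anhydrases in pH control, and 0 of 13 tested were called after CHD4 silencing, where 4.80% of all genes were higher and 1.65% lower. After CHD3 silencing 1 of 13, the bicarbonate transporter SLC4A4, was lower, beside 4.33% of all genes. It was at 1.20, 1.23 and 0.816 CPM in siCtrl 4 to 6 and 0.626, 0.260 and 0.324 CPM in siCHD3 (log2 -1.43 ± 0.37 SE, edgeR adjusted p = 0.0167), a call kept in 4 of 6 leave-one-out fits. The responses of SLC4A4 (difference 2.54, edgeR adjusted p = 0.0497) and of the related SLC4A5 (2.55, 0.0268) differed among 14 tested, in 3 and 4 of 12 leave-one-out fits, both higher for siCHD4, as for 6.84% of all genes.

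Among other ligands and receptors of VEGF and adrenomedullin signalling, 1 of 11 tested was higher and 1 lower after CHD4 silencing, beside 4.80% and 1.65% of all genes. The VEGF receptor KDR was at 0.180, 0.0922 and 0.0818 CPM in siCtrl 1 to 3 and at 1.12, 1.40 and 1.41 CPM in siCHD4 (log2 3.38 ± 0.36 SE, edgeR adjusted p = 0.00269). Like CA9, KDR passed the low-count filter only through its siCHD4 libraries. In the siCHD3 table KDR had at most 25 counts in a library and was too low to be tested. The difference between the KDR responses did not pass (log2 1.41 ± 0.97 SE, edgeR adjusted p = 0.381), so the rise cannot be called particular to siCHD4. The lymphangiogenic ligand VEGFC was at 2.64, 2.45 and 1.61 CPM and at 0.967, 1.12 and 1.03 CPM (log2 -1.11 ± 0.25 SE, edgeR adjusted p = 0.0388), a call kept in 1 of 6 leave-one-out fits. The endothelial markers CDH5 and VWF moved with KDR. Their summed level was 0.136 to 0.369 CPM in siCtrl 1 to 3 and 1.19 to 1.97 CPM in siCHD4. PECAM1, also of the 3 endothelial markers, had no row with counts, so no level can be given for it. The 5 fibroblast markers all had counts and summed to 1.30 to 3.79 CPM and 2.90 to 3.50 CPM, and PDGFRB among them was called higher after siCHD4 (log2 1.65 ± 0.33 SE, edgeR adjusted p = 0.0238). The leukocyte markers, 2 of 3 with counts and CD3E without a row of counts, summed to 0.356 to 0.497 CPM and 0.791 to 0.978 CPM. The part of other cells in the rise of CA12, CA9 or KDR was not tested. KDR is an endothelial gene as well as a VEGF receptor.

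After CHD3 silencing the placental growth factor PGF, a VEGF relative, was lower as 1 of 10 tested, at 9.27, 9.12 and 11.9 CPM in siCtrl 4 to 6 and 3.18, 5.67 and 5.23 CPM in siCHD3 (log2 -1.10 ± 0.23 SE, edgeR adjusted p = 0.00502), with 0 higher. Of all genes, 4.33% were lower. PGF fell under the fold minimum in 2 of 6 leave-one-out fits. In the interaction PGF had a higher response to siCHD4 (difference 1.87, edgeR adjusted p = 0.0160) and VEGFC a lower response (-1.60, 0.00364) of 11 tested, beside 6.84% and 7.16% of all genes.

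Paralogues of the members were taken as a list of 20. After CHD4 silencing 1 of 15 tested was higher and 1 lower, the latter being VEGFC, beside 4.80% and 1.65% of all genes. NDRG4, a paralogue of NDRG1, was at 0.443, 0.448 and 0.218 CPM in siCtrl 1 to 3 and at 3.86, 3.67 and 4.12 CPM in siCHD4 (log2 3.34 ± 0.30 SE, edgeR adjusted p = 0.00149), in all 6 leave-one-out fits. NDRG1 itself had a log2 change of 0.44, which did not pass.

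After CHD3 silencing 0 of 15 paralogues were higher and 3 lower, beside 3.89% and 4.33% of all genes. The lower genes were ANGPTL2 (log2 -1.22 ± 0.23 SE, edgeR adjusted p = 0.00277), ANGPTL6 (-1.27 ± 0.40, 0.0391) and PGF. The ANGPTL6 call was lost in each of the 6 leave-one-out fits. ANGPTL6 had a similar log2 change after siCHD4 (-1.28, edgeR adjusted p = 0.0706), and the difference between its responses was -0.001 (0.999). In the interaction, beside 6.84% of all genes higher and 7.16% lower, 3 of 15 paralogues were higher and 3 lower: NDRG4 (4.06, edgeR adjusted p = 0.00180), ANGPTL2 (2.2, 0.00123) and PGF, and VEGFC, NDRG3 (-1.13, 0.00473) and KDM3B (-0.94, 0.0137).

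The peptidylarginine deiminase genes PADI1 and PADI3, on which the study centred, give a scale for the carbonic anhydrases. In siCHD4 PADI1 was at 3.39, 3.08 and 3.73 CPM and PADI3 at 3.87, 3.57 and 3.96 CPM, and CA12 at 2.79, 2.78 and 3.24 CPM was below PADI3 in every library and overlapped PADI1, on a scale not corrected for gene length. PADI1 had been at 0.190, 0.224 and 0.463 CPM in siCtrl 1 to 3.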

How the data were processed

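Per the labels, RNA from 501Mel cells was amplified from 6 ng by a NuGEN kit with 8 cycles of library PCR. Tools listed in the submitters' processing notes are TopHat2 2.0.10, Bowtie2, HTSeq, cutadapt 1.10, CASAVA 1.8.2 and DESeq2, with build hg19. The authors deposited raw read counts per gene, which were tested here, and a normalised signal per kilobase, used for levels between genes. Deposited columns of log2 fold changes and p-values of the authors' own comparisons were not used. 5 rows of the siCHD3 table that name no gene were left out.

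Counts were fitted in edgeR 4.0.16 (R 4.3.3; TMM, filterByExpr, robust quasi-likelihood test, Benjamini-Hochberg over all genes tested), each table alone; an interaction used all 12 libraries. The script was tested on simulated data. Alternatives were DESeq2 1.42.0 (test and size factors), no filter, shared spread, no fold minimum, a replicate block and leaving out each library. Amplified reads are not independent molecules, so count intervals cover counting error only. Gene positions came from GENCODE on GRCh37.

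The members and lists were chosen with earlier results of these data known, and 1 gene of the hypoxia target list is not reported here. Named were all members, up to 4 called genes per list and comparison by adjusted p, the main HIF genes, and carbonic anhydrases with at least 10 counts; exceptions are stated.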

Additional observations from a re-analysis of the deposited data

Results flagged for a closer look

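The response to CHD4 silencing differed from the response to CHD3 silencing, by the edgeR interaction test over 12 libraries, for 4 of 9 members tested. Of 17357 genes, 6.84% had a higher and 7.16% a lower response to siCHD4. The log2 difference was 4.022 for CA12, 1.721 for ADM, 1.017 for NDRG1 and 0.84 for VEGFA, and in each case the change was more positive after siCHD4. For CA12 the difference came with a rise after siCHD4, and CA12 was too low to be tested after siCHD3. For ADM and VEGFA it came with a lower level after siCHD3. The VEGFA difference was called in 9 of 12 fits that left out a library, and without low-count filtering its edgeR adjusted p was 0.0521. For NDRG1 neither silencing passed its own test, and the difference was called in 3 of 12 fits that left out a library.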

How the results depend on the processing

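The 2 members called after siCHD4 were 1 to 2 when a library was left out and 2 under a replicate block. The same-numbered libraries of siCtrl and siCHD4 did not deviate together (correlations 0.017, 0.052 and -0.155), and differently numbered ones gave -0.264 to 0.294. With 3 libraries per group, centred on their own mean, these values cannot decide whether the numbers pair them. Under that block 491 genes were higher and 111 lower. No block could be fitted for siCHD3, whose numbers are not those of its controls. The 1 member called after siCHD3 became 3 without the fold minimum, as 1856 genes were then higher and 1419 lower. The 4 members that differed were 2 without low-count filtering and 2 to 4 with a library left out. After siCHD4, genes called lower numbered 457 by DESeq2 and 497 with the spread shared over 12 libraries. Leaving out a library gave 232 to 1551 higher, 29 to 536 lower and 1595 to 4615 that differed. Among 103 log2 changes, 1192 alternative values kept direction and call, 81 lost the call, 14 gained it and 31 changed sign. The sign changes were of values near 0. BNIP3 after siCHD4 was 0.009 with DESeq2 size factors, 0.014 without the filter, 0.016 by DESeq2 and 0.008 with shared spread, and KDM3A was 0.006 with those size factors, 0.007 by DESeq2, 0.002 with shared spread and 0.033 under the block. With a library left out, the ranges after siCHD4 were -0.067 to 0.083 for BNIP3, -0.2 to 0.238 for KDM3A, -0.459 to 0.064 for EGLN3, -0.319 to 0.03 for CA5B, -0.167 to 0.297 for CA8, -0.152 to 0.479 for CA13, -0.06 to 0.067 for EPAS1, -0.088 to 0.37 for EGLN2 and -0.425 to 0.003 for VHL. They were -0.157 to 0.014 for KDM3A after siCHD3, and for the differences -0.076 to 0.318 for KDM3A, -0.218 to 0.024 for ANKRD37, -0.062 to 0.223 for CA14 and -0.094 to 0.415 for HIF1A. The cause of these shifts was not tested. Depth limits CA9, CA12 and ANGPTL4, which had at most 14 counts in any library of the siCHD3 table.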
